A study of Mus musculus with 3 samples.

Results

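SOX2 binding was examined at the loci of 5 genes known as Wnt targets, Lgr5, Axin2, Ccnd1, Myc and Cd44, in glands of the mouse gastric antrum. Each locus was a fixed mm9 window, and all peaks of the wild-type and the Sox2 knockout ChIP-seq lists that overlapped a window by at least 1 bp were taken. The windows together held 6 peaks, all of them in the wild type, out of 8100 peaks in both lists. The wild-type list had 7213 peaks and the knockout list 887. The knockout animals were Rosa26CreER; Sox2 fl/fl, in which a tamoxifen-activated Cre recombinase at the broadly active Rosa26 locus deletes the floxed Sox2 alleles, and the wild-type animals carried the same floxed alleles with Rosa26WT. Animals of both genotypes were of a C57BL/6 x 129 mixed background, were given tamoxifen at 8 weeks of age and were sampled 2 weeks afterwards. Each genotype had 1 ChIP library made with a goat antibody against SOX2, and the number of animals behind it is not given in the sources used here. Without replicates, differences between genotypes have no replicate error and were not tested. The lists hold no reads and no expression values, so neither the deletion of Sox2 nor the labelled tissue could be checked here, and the depth of each library is unknown.

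In Wnt signalling, secreted ligands bind Frizzled and LRP receptors, β-catenin escapes degradation, and it enters the nucleus to act with TCF/LEF factors on target genes. TCF/LEF proteins and SOX2 bind DNA through the same kind of domain, the high-mobility-group box, and read related A/T-rich core sequences. In the gastric antrum, Wnt signals sustain the stem cells at the gland base. Lgr5, a receptor for R-spondins, marks such stem cells. Axin2 is a scaffold of the complex that degrades β-catenin and acts as a negative feedback regulator. Ccnd1 encodes cyclin D1, which drives cells into the DNA synthesis phase, Myc encodes a growth-promoting transcription factor, and Cd44 encodes a cell-surface receptor for hyaluronan.

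Cd44 had the most peaks of the 5 windows and Axin2 had none, and the RefSeq promoters of these genes are shown so that their letters can be compared. Of the 5 genes, Axin2 and Cd44 had an entry in the promoter table. Each sequence is the 250 bases before the annotated start, read along the gene from 5′ to 3′ on GRCm38.p6, which is not the build of the peaks. The Axin2 promoter is at chr11:108920099-108920348 on the plus strand and that of Cd44 is at chr2:102901666-102901915 on the minus strand. Capitals mark matches, on either strand, to the TCF core CTTTG or to the SOX cores ACAAT and ACAAAG. The ACAAAG core contains the reverse complement of CTTTG, so its matches also count for the TCF core.
Axin2: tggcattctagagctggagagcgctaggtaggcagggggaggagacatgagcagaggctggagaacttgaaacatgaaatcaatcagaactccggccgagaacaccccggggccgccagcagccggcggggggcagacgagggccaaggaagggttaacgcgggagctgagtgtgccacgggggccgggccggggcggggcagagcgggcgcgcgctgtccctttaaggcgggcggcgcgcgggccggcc
Cd44: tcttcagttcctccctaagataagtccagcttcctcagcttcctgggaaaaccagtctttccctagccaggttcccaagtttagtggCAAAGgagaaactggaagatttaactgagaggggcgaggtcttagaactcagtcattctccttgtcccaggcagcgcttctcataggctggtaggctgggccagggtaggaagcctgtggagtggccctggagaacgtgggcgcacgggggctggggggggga
Cd44 had 1 TCF core match, starting 163 bases before the gene's start on the opposite strand, and no SOX core match. Axin2 had no match to any of the 3 cores, and its promoter was 69.2% G and C against 56.4% in Cd44. Among 32851 promoters of the same length, 48.6% held CTTTG, 27.7% held ACAAT and 16.5% held ACAAAG. A match is a description of letters only. Whether a peak lay at the Cd44 promoter could not be read directly, because the builds differ. Distances that assume the gene in the middle of its window are given below.

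Cd44 had the most peaks of the 5 windows, with 3 for the wild type and none for the knockout. The window covered chromosome 2 from 102551000 to 102842000, a length of 291 kb. The highest peak lay from 102666182 to 102666574 with a score of 159.03, rank 1341 of 7213 in the wild-type list. Scores come from the authors' peak caller and serve here to rank peaks within a list. This peak was the only one of the 6 with a score of at least 100. A peak with a score of 74.3 lay 10.5 kb from it, from 102655406 to 102655690, and a peak with a score of 65.16 lay from 102706918 to 102707123. Both scored below the list's median of 82.62, at ranks 4086 and 4973. The peaks were 393, 285 and 206 bp wide in the order of their description, beside a median width of 320 bp in the whole list, and 5.13% of the list was narrower than the 206 bp peak.

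To give the background, the part of each autosome that lies between its outermost peaks was divided into adjoining windows of the Cd44 window's length. At least 1 wild-type peak was present in 39.3% of these 8192 windows, and at least 3 were present in 11.8%. With scores of at least 100 the window held 1 peak, and 22.8% of windows then held at least 1, while among windows with a peak of either genotype 28.9% held at least 3. The mean was 0.868 peaks and the 90th percentile was 3. The exact Poisson 95% interval for a count of 3, from 0.619 to 8.77, includes that mean. A count of 3 in 1 window shows neither a difference from the background nor its absence. Such intervals cover counting error only and make no allowance for the uneven spread of peaks. Of these windows 60.7% held no wild-type peak, and the fullest held 15. At least 1 knockout peak was present in 8.89% of the windows.

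The 3 Cd44 peaks lay near the middle of the window, 41 kb and 30.1 kb below its centre and 10.5 kb above it. In the RefSeq table the Cd44 gene is 90.5 kb long, which leaves 200.5 kb of the window outside it, and over the 5 genes this remainder ran from 198 to 201.1 kb. If the gene lies in the middle of its window, all 3 peaks fall within the gene's own length. The gene's mm9 position was not read from an annotation, so the exon or intron is not given. As the gene runs on the minus strand, its start would be at the high-coordinate end, and the peak with a score of 159.03 would be 75.4 kb from that end. The peak with a score of 65.16 would be the nearest to it, at 34.7 kb. Of adjoining autosomal windows as long as the gene, 2.01% held at least 3 wild-type peaks. This length was chosen after the positions had been seen, so the share is a description. Outside the window the nearest wild-type peaks were 568 kb away on the low side, with a score of 133.2, and 142 kb away on the high side, with a score of 155.29. The coding neighbour within the same distance of Cd44 in the RefSeq table is Slc1a2, which encodes a glutamate transporter.

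**Figure D1:**
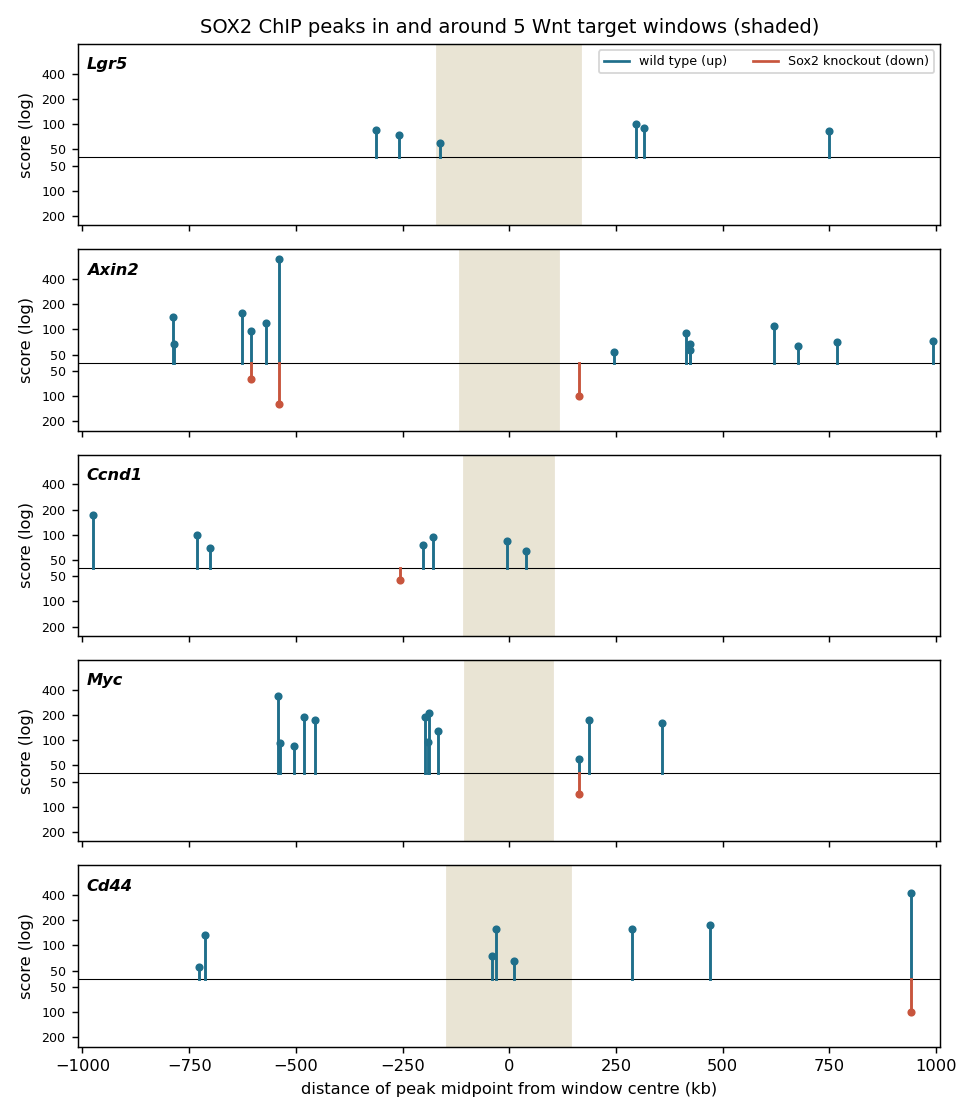
SOX2 ChIP peaks in the 5 windows (shaded) and up to 1 Mb from their centres, with the distance of the peak midpoint from the window centre (kb) on the x axis and the score on a log scale, drawn from a score of 40, on the y axis. Wild-type peaks point up and knockout peaks down; the shaded windows hold 1 wild-type peak at Lgr5, 2 at Ccnd1 and 3 at Cd44, and no knockout peak.

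Ccnd1 had 2 wild-type peaks and no knockout peak. Its window covered chromosome 7 from 152015000 to 152226000, a length of 211 kb. The higher peak lay from 152115471 to 152115716, was 246 bp wide and had a score of 83.43, rank 3561 of 7213. It was 4.91 kb below the window's centre, closer to the centre than the other 5 peaks were to theirs. The RefSeq gene is 9.9 kb long, and a stretch of that length in the middle of the window shares 167 bp with this peak at its low-coordinate end. The second peak, from 152159441 to 152159716, had a score of 63.42 and lay 39.1 kb above the centre, outside that stretch. At least 1 wild-type peak was present in 32.4% of 11302 autosomal windows of this length, and at least 2 in 15.9%. At least 1 knockout peak was present in 6.67%. The mean of 0.629 wild-type peaks lies within the Poisson interval for a count of 2, from 0.242 to 7.22. Neither list had a peak beyond the window on the high side of chromosome 7. The second peak was the last of this chromosome in either list, with its midpoint 66.4 kb from the window's high edge. The background windows did not reach beyond that peak, and how far the chromosome runs past the window was not read. In the RefSeq table, coding neighbours within the same distance of Ccnd1 are Fgf3, Fgf4 and Fgf15, which encode fibroblast growth factors, and LTO1. The peaks were not assigned to any of these genes.

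Lgr5 had 1 wild-type peak, in the outermost part of its window, and no knockout peak. The window covered chromosome 10 from 114787000 to 115125000, the longest of the 5 at 338 kb. The peak lay from 114794642 to 114794996, was 355 bp wide and had a score of 59.92, rank 5472 of 7213 and the lowest of the 6. It was 7.82 kb from the window's low edge and 161 kb from its centre. A stretch of the RefSeq gene's length of 137 kb in the middle of the window held no peak of either genotype. Of 7053 autosomal windows of this length, 42.9% held at least 1 wild-type peak and 10.2% held at least 1 knockout peak. The mean was 1.01 wild-type peaks, close to the 1 found. Coding neighbours of Lgr5 in the RefSeq table within the same distance are Tmem19, Thap2, Zfc3h1 and A930009A15Rik.

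Axin2 had no peak in either genotype. Its window covered chromosome 11 from 108681000 to 108912000, a length of 231 kb. At least 1 wild-type peak was present in 34.3% of 10323 windows of this length and at least 1 knockout peak in 7.23%, so 65.7% also lacked a wild-type peak. The surroundings did hold peaks, with 15 wild-type and 3 knockout peaks within 1 Mb on either side. The autosomal densities give 5.98 and 0.732 for 2 Mb. These densities make no allowance for the uneven spread of peaks. The share of 2 Mb stretches with as many peaks was not computed, so no excess is shown. Around Lgr5, Ccnd1 and Cd44 there were 5 wild-type peaks each within 1 Mb on either side, and around Myc there were 12. All 5 around Ccnd1 lay on its low side, as its window holds the last peak of chromosome 7 in either list. The length of the chromosome beyond that window was not read, so the density for 2 Mb may not apply to Ccnd1. The scores of the 15 ran from 53.53 to 687.7. The highest, from 108257492 to 108258001, was 423 kb below the window, ranked 53 in the wild-type list and overlapped a knockout peak with a score of 123.13. The nearest peak of any list was a knockout peak 47.1 kb above the window, from 108959121 to 108959446, with a score of 101.17 and rank 134 of 887. It overlapped no wild-type peak, and of the 295 knockout peaks that overlapped none, it was 1 of 10 that scored 100 or more. The coding neighbour of Axin2 in the RefSeq table within the same distance is Cep112.

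Myc had no peak in either genotype in its window, while wild-type peaks lay on both sides of it. The window covered chromosome 15 from 61716000 to 61922000, the shortest of the 5 at 206 kb. At least 1 wild-type peak was present in 31.9% of 11576 windows of this length, and 6.49% held at least 1 knockout peak. On the low side, 4 wild-type peaks lay between 64.4 and 94 kb from the window's edge. Their scores were 186.14, 95.56, 208.74 and 129.82 in order of position, each above the list's median of 82.62. On the high side, peaks with scores of 58.81 and 173.37 lay 61.3 and 83.8 kb from the edge. The window widened by 100 kb on each side therefore held 6 wild-type peaks, and 3.54% of autosomal windows of that length held at least 6. That length was planned as an alternative for the counts, and the share was computed after the counts had been seen. Within 1 Mb on either side there were 12 wild-type peaks, with a median score of 166.67 and a highest score of 340.1 at 61277761 to 61278356. The RefSeq table lists no coding neighbour of Myc within the window's distance.

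The peak 61.3 kb above the Myc window was also called in the knockout. The wild-type peak, from 61983272 to 61983550, scored 58.81, and the knockout peak, from 61983303 to 61983526, scored 70.25. The ranks were 5637 of 7213 and 335 of 887. A higher score in the knockout was found for 35 of 592 overlapping pairs over both lists (5.91%). These pairs took in all scores, and 325 of the 588 wild-type peaks with a knockout peak scored 221.05 or more. The knockout list began at 50.02 and had a median of 63.15, above the 58.81 of this wild-type peak. The share among pairs with a like wild-type score was not computed, so 5.91% does not show that this pair is unusual. Scores of separate libraries are set side by side here and not compared by a test. The other 11 wild-type peaks within 1 Mb of the Myc window overlapped no knockout peak. Over the whole list only 8.15% of the 7213 wild-type peaks overlapped one, so most wild-type peaks anywhere had none.

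**Figure D2:**
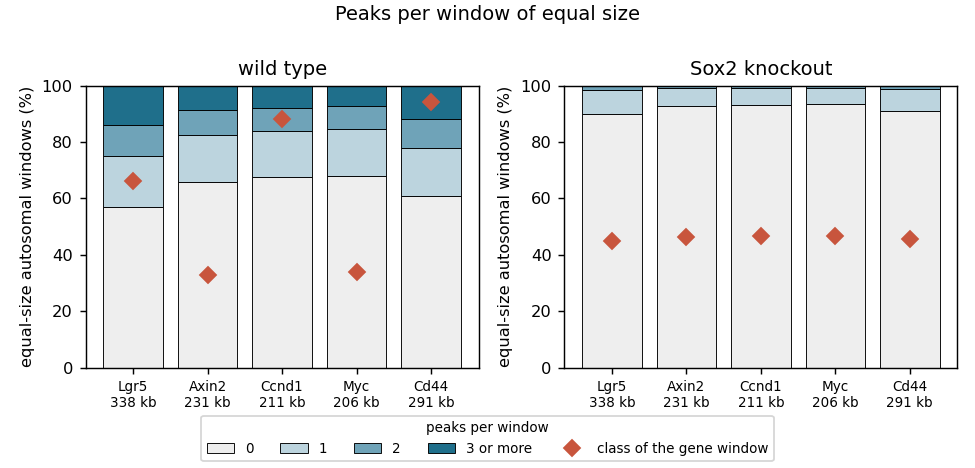
Share of adjoining autosomal windows (y axis, %) with 0, 1, 2 or 3 or more peaks, for windows of the length of each gene window (x axis), for the wild type (left) and the knockout (right). Diamonds mark the class of the gene window itself: Cd44 is in the class of 3 or more, reached by 11.8% of windows, Axin2 and Myc are in the most common wild-type class of 0, and all 5 are in the class of 0 in the knockout.

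Together the 5 windows spanned 1277 kb and held 6 wild-type peaks, or 4.7 per Mb (exact Poisson interval 1.72 to 10.2). The autosomes had 2.99 per Mb, which gives 3.82 peaks for this length and lies within the interval. The windows widened by 100 kb on each side held 15 wild-type peaks. For their length the autosomal density gives 6.8, below the exact Poisson interval of 8.4 to 24.7. This does not show an excess, because the interval makes no allowance for the uneven spread of peaks along the autosomes. Of autosomal windows as long as the widened Myc window, 52.6% held no wild-type peak and 3.54% held at least 6. Myc contributed 6 of the 15, and without Myc, a setting chosen after the counts had been seen, there were 9 (4.12 to 17.1) beside 5.59. Wild-type peaks were present in 3 windows and absent from 2. The knockout count of 0 allows up to 2.35 peaks per Mb by the limit of 3 counts, and the autosomal density of knockout peaks was 0.366 per Mb, or 0.467 peaks for this length. With so few expected, a count below the density could not be shown in windows of this length. The windows were placed around genes, while the autosomal windows also took in stretches without genes. The part of gene content in these shares was not tested.

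The scores of the 6 wild-type peaks ran from 59.92 to 159.03 with a median of 69.73, and 4 of the 6 were below the list's median of 82.62. The highest Cd44 peak was among the upper 18.6% of the list. Scores reached 100 in 1 of 6 (16.7%, exact Clopper-Pearson interval 0.421 to 64.1), beside 38.8% of the whole list. The 6 peaks came from 3 windows of 1 library and are not replicates. The interval covers counting error only and is no test against the list. The widths ran from 206 to 393 bp with a median of 280.5 bp. None of the 6 was among the 887 highest-scoring wild-type peaks, which reached down to a score of 197.89.

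None of the 6 peaks overlapped a knockout peak. The nearest knockout peaks were between 251 and 1710 kb away, nearest for the Ccnd1 peak with a score of 83.43 and farthest for the Lgr5 peak. Over the whole list 8.15% of wild-type peaks overlapped a knockout peak, and among the 4152 with scores from 59.92 to 159.03 the share was 3.56%. For each of the 6, the 100 peaks ranked above and the 100 ranked below were examined. The share with a knockout peak was 9.5% (exact interval 5.82 to 14.4) at the score of the highest Cd44 peak and 1.0% (0.121 to 3.57) at that of the Lgr5 peak. It was 1.5% for the Cd44 peak with a score of 74.3 and 2.5% for each of the remaining 3. These shares add up to 0.195 of 6 peaks, beside the 0 of 6 found. A knockout signal under the lowest listed score of 50.02 would not appear, and the absence of a knockout peak does not show the absence of signal.

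**Figure D3:**
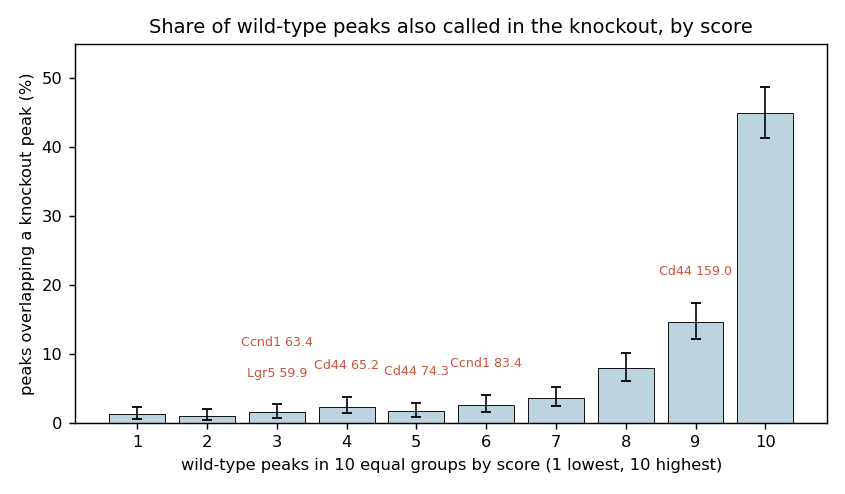
Share of wild-type peaks that overlapped a knockout peak (y axis, %, with exact Clopper-Pearson 95% intervals) in 10 groups of equal size by score (x axis, 1 lowest, 10 highest). The 6 peaks of the gene windows are written above their group with their scores: 5 fall in groups 3 to 6, where the share ran from 1.53 to 2.64%, and the highest Cd44 peak falls in group 9, with 14.6%.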

How the data were processed

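The submitters' processing notes name Bowtie2, MACS and the build mm9. No version, setting or control library is stated in them. The deposited lists, 1 per library, give each peak's position and a score, the authors' peak caller's value, whose scale no source names. The input library was not analysed here. Positions are 1-based on mm9.

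The genes, windows and other lists were chosen with earlier results of these data known. All peaks in a window are named. In place of randomly drawn windows, every adjoining window of equal length on the 19 autosomes was counted, as a description and not a test. With 1 library per genotype no p-value was computed. Counts above 0 have exact Poisson and shares exact Clopper-Pearson 95% intervals, and for a count of 0 the upper limit is 3 counts. Counting was tested on simulated data against bedtools 2.31.1 (run with SciPy 1.17.1, pandas 2.3.3, NumPy 2.4.6 and matplotlib 3.10.9 on Python 3.11.15). A genome and annotation of mm9 were not used here: the RefSeq table (GRCm38.p6) matched all 5 symbols and served for names, gene lengths, neighbours and promoters. Alternatives were the score limit, window length, counting rule, choice of background windows and overlap rule. Peak sequences and a planned list of other Wnt pathway genes were not analysed.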

Additional observations from a re-analysis of the deposited data

How the results depend on the processing

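Of 69 alternatives to the reported values, 29 could not change the value, most of them because a count of 0 stays 0 under a narrower rule. Of the other 40, 17 left a count within 1.5 times or a share within its counting interval, and 23 moved it. For shares this interval is a set margin and no sampling error, since every adjoining window was counted and peaks are unevenly spread. With a score of at least 100 the 5 windows held 1 wild-type peak, the highest of Cd44, and with the wild-type list reduced to its 887 highest scores, the length of the knockout list, they held 0. Windows widened by 100 kb on each side held 15 wild-type peaks, beside 6.8 at the autosomal density, and 2 knockout peaks: Lgr5 had 2 and 0, Axin2 0 and 1, Ccnd1 4 and 0, Myc 6 and 1, and Cd44 3 and 0. Windows shortened by 50 kb on each side held 5 wild-type peaks, without that of Lgr5. Counting by midpoint changed no count. The share of equal-size windows with as many wild-type peaks as Lgr5 was 47.1% on its own chromosome and 96.7% among windows with a peak of either genotype, beside 42.9% over all. For Ccnd1 it was 47.5% among windows with a peak. For Cd44 it was 10.6% on its own chromosome, 28.9% among windows with a peak, 22.8% with a score of at least 100, and 2.01% for the gene's length, a setting chosen after the data were seen. Restriction to windows with a peak raises a share by construction. For Lgr5 and Ccnd1 no share exists with a score of at least 100, since no peak was left. The other overlap rules could not move the 0 of 6 peaks with a knockout peak, since the nearest knockout peak was 251 kb away, and all 6 were narrower than 1 kb, so the median score of 69.73 could not move. No paired analysis was possible because each genotype had 1 library, and no replicate could be left out. Unknown depth limits each comparison of numbers between the genotypes, and few peaks limit each window's count.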
